A study of Mus musculus with 50 samples.

Results

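The libraries described here came from CD25- Foxp3+ regulatory T cell progenitors (P2) of the mouse thymus, and the comparison set 3 libraries from day 49 after birth (D49) against 3 from day 12 (D12). These 6 libraries were chosen by their labels from the 50 of the series. P2 cells were sorted as CD4+ CD8- CD25- Foxp3+, with Foxp3 read through a green fluorescent reporter. All were from male mice of the reporter strain B6.Cg-Foxp3tm1Kuch/J, with the genotype labelled WT and no treatment, so every group carries the reporter allele and the groups differ in age. Each library was made from 500 to 1000 double-sorted cells. The library protocol text of the labels was written for muscle samples, so how the thymus cells were lysed is not known from it. The other thymic progenitor, CD25+ Foxp3- (P1), of the same strain and sex, was used at both ages to ask where the age change of P2 differed from that of P1, with 3 libraries a group. P2 libraries from day 5 (D5) are given as values beside them.

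Regulatory T cells restrain immune responses and depend on the transcription factor Foxp3. In the thymus they arise from CD4+ CD8- thymocytes that receive a strong T cell receptor signal, along a route that first gains CD25, the alpha chain of the interleukin 2 receptor (Il2ra), or along a route that first gains Foxp3. The CD25- Foxp3+ stage needs interleukin 2 or related cytokines to complete its differentiation. In adult mice, mature regulatory T cells can also return to the thymus from the periphery, so a gate on Foxp3 and CD25 can hold cells of different histories. Regulatory T cells made around birth are known to persist and to differ in gene expression from those made in adults.

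The mitosis list carried the largest share of lower members, and the sequences in front of its genes are shown here because many of its members moved together. CCAAT is the box bound by the factor NF-Y, and TTTGAA is the cell cycle homology element found in promoters of genes expressed late in the cell cycle. In the 250 bases before the annotated start, on either strand, 14 of the 20 lower mitosis genes with a promoter in the table held CCAAT and 8 held TTTGAA. Of the whole mitosis list, 21 of 30 promoters held CCAAT and 10 held TTTGAA, so the CCAAT share was 70% in both. Of the S phase list, 19 of 30 held CCAAT and 5 held TTTGAA. Among all 27025 promoters of the same length, 34.5% held CCAAT, 16.3% held TTTGAA and 5.73% held both. Both motifs occurred together in 8 of those 20 promoters, and 4 of these, taken in order of adjusted p, are printed 5′ to 3′ on the gene's strand, with both motifs in capitals in either orientation (ATTGG and TTCAAA are the reverse complements). The sequences are from RefSeq, build GRCm38.p6. Ncapg (a condensin subunit) is at chr5:45669675-45669924 on the plus strand, Ect2 (an exchange factor for cytokinesis) at chr3:27153879-27154128 on the minus strand, Top2a (topoisomerase II alpha) at chr11:99024190-99024439 on the minus strand, and Ccnb2 (cyclin B2) at chr9:70421555-70421804 on the minus strand.
Ncapg: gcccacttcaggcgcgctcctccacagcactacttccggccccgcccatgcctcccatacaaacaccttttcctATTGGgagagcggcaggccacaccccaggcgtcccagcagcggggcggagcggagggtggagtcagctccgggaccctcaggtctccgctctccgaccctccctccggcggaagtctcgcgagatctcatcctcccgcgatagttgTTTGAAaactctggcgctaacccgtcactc
Ect2: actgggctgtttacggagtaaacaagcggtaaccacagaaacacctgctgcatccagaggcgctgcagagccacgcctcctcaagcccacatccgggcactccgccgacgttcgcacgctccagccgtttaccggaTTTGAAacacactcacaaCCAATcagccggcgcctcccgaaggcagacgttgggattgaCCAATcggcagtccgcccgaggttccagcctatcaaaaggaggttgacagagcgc
Top2a: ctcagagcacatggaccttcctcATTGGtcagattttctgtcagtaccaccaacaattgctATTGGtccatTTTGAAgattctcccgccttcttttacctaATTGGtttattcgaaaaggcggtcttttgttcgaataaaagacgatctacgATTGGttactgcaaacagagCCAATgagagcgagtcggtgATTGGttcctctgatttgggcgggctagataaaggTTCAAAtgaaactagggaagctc
Ccnb2: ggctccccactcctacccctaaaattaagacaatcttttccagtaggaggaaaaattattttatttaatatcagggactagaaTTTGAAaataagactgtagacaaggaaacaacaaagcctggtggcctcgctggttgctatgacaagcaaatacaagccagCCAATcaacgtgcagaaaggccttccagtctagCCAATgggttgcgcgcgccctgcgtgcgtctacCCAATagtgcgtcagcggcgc
The third motif searched, the E2F site written as TTTCCCGC or TTTGGCGC, stood in 6 of 30 S phase promoters and in 1 of 30 mitosis promoters, against 1.35% of all. A motif match is a description of these letters and does not show binding.

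The labels were checked against marker genes. Levels are CPM on effective library sizes after trimmed-mean scaling (TMM CPM). Foxp3 stood at 759, 745 and 861 TMM CPM in the D12 libraries of P2 and at 441, 550 and 310 in the D49 libraries, while P1 held 4.88 to 19 at these ages. Il2ra stood at 23.7, 23.7 and 38.1 in P2 at D12 and at 32.9, 43.1 and 48 at D49, against 105 to 168 in P1. P2 was thus above P1 in Foxp3 and below it in Il2ra in every library at both ages (edgeR adjusted p = 3.66e-13 and 3.26e-08 at D12, 2e-11 and 1.19e-05 at D49). Cd8a was at most 6.1 TMM CPM in the 6 libraries, and the summed T cell genes Cd3e, Cd3d, Cd3g, Cd4, Trac, Trbc1, Trbc2, Lck and Cd5 lay between 9793 and 10852 CPM in all 6. Cd8b1, the other CD8 chain, was higher than Cd8a, at 24.1, 24 and 21.3 CPM at D12 and 40.6, 33 and 27.1 at D49. Its log2 fold change was 0.56 (edgeR adjusted p = 0.0569).

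D49 replicates 2 and 3 stood apart from the other P2 libraries. Total counts were 4404266 to 4697828 at D12 and 3473454, 2817171 and 3989703 at D49. At an equal depth of 2817171 counts, 18336 to 19460 genes were detected at D12 and 19217 in D49 replicate 1, but 27729 and 27374 in D49 replicates 2 and 3. Genes averaging under 1 CPM took 1.25% and 1.53% of counts there and 0.272% to 0.335% in the other 4. The 14 macrophage and monocyte markers summed to 324 to 361 CPM at D12 and to 511, 788 and 834 CPM at D49, most of it Ctss. Of these 14, 9 entered the test and 8 passed as higher at D49, where 8.96% of all genes tested did. Cd14 was at 0 in all 6 libraries. The defining macrophage members Lyz2, Csf1r, C1qa, C1qb and C1qc were at 2.59, 3.45, 4.61, 3.74 and 4.89 CPM in D49 replicate 1, against 36.6, 16.3, 11, 13.8 and 15.3 in replicate 2. At D12 C1qa, C1qb and C1qc were at 0, Lyz2 at most 0.672 and Csf1r at most 1.34 CPM. NK cell markers summed to 7.72 to 12.8 CPM at D12 and to 14.1, 35.9 and 48.1 at D49, and MHC class II genes to 60.5 to 70.7 and then 98.5, 295 and 125. The P1 libraries of D12 also detected many genes at this depth, from 25196 to 30147, against 17093 to 19246 for P1 at D49. For these reasons a second fit left out D49 replicates 2 and 3, and its result is given where it ends or makes a call or moves a named change by over 1.5 times, and for other genes where printed; that fit keeps 1 D49 library, which is assumed to vary like the other groups. What these differences between libraries contribute to any one result was not tested. In bulk libraries, fewer cells of a kind and less RNA per cell cannot be told apart.

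Of 14696 genes tested, 2196 were called between D49 and D12 (edgeR quasi-likelihood test over 18 thymus libraries, Benjamini-Hochberg adjusted p below 0.05), that is 14.9%: 1317 higher at D49 (8.96%) and 879 lower (5.98%). The calls hold many weakly expressed genes. Among the 7255 genes with a mean of at least 20 TMM CPM in the 6 libraries, 1062 were called (14.6%), 432 higher (5.95%) and 630 lower (8.68%), so the balance turned towards lower. Without D49 replicates 2 and 3, 538 of 17825 genes were called (3.02%), 126 higher (0.707%) and 412 lower (2.31%). Calls in the same direction in both fits numbered 334. When the 6 libraries were fitted without the other thymus groups, 79 of 11770 genes were called. That fit has few degrees of freedom to estimate the spread, and the reason for the lower number was not tested. A set of 220 genes passed at 20 TMM CPM or more, did not overlap between the ages and was also called without D49 replicates 2 and 3: 55 higher and 165 lower. Among all genes tested, the ages did not overlap in 11.4% on the higher side and in 11.2% on the lower side. The 15 largest changes in each direction among them, leaving out numbered gene models, are the genes named here.

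The clearest group to fall from D12 to D49 was the cell division genes. Mitosis and spindle genes fell in 24 of 35 members tested and rose in 0, where 5.98% of all genes fell. The median log2 fold change was -1.35, against 0.06 for all genes. Without D49 replicates 2 and 3, 29 fell and 0 rose, with a median of -2.93. DNA replication and S phase genes fell in 16 of 36 and rose in 0 (median -0.69), and in 17 without these replicates (median -0.87). The S phase genes fell less than the mitosis genes in both fits, as medians; this difference between the lists was not tested. In the fit of the 6 libraries alone, 0 mitosis and 3 S phase genes were called; by DESeq2 23 and 17 were, and by limma-voom 12 and 12. Leaving out D12 replicate 2 left 15 mitosis and 10 S phase genes lower.

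Birc5, which encodes survivin, a subunit of the chromosomal passenger complex, stood at 57.8, 72.2 and 44.7 TMM CPM at D12 and at 5.99, 15.3 and 20.9 at D49. The ages did not overlap, and D49 replicate 1 was the lowest. Its log2 fold change was -2.03 ± 0.26 (SE; edgeR adjusted p = 7.37e-05), and -3.29 without D49 replicates 2 and 3. Ccna2, cyclin A2, fell from 102, 106 and 57.6 to 3.59, 15.3 and 22.1 (-2.67 ± 0.40, adjusted p = 0.00106; -4.63 without). Bub1b, a spindle checkpoint kinase, went from 67.3, 78.6 and 36.1 to 7.48, 24.6 and 12.9 (-2.05 ± 0.30, adjusted p = 0.000422; -3.03 without). In each of these genes D49 replicate 1 held the lowest level of all 6 libraries. Top2a, whose promoter is printed above, fell from 139, 246 and 127 to 26, 62.3 and 78.1 (-1.62 ± 0.30, adjusted p = 0.00412; -2.73 without). Ect2 went from 26.2, 32.1 and 11.8 to 4.49, 9.61 and 1.49, Ncapg from 21.5, 55.1 and 22.4 to 3.29, 8.54 and 8.45, and Ccnb2 from 74.8, 92.5 and 43.9 to 6.59, 25.6 and 29.3 (-1.77 with all libraries, -3.43 without). D12 replicate 2 was the highest library for these 4 genes. Mki67, the proliferation marker, fell from 63.9, 81.3 and 46.2 to 7.18, 33.8 and 34.3 (-1.34 ± 0.35, adjusted p = 0.0222; -3.16 without). Plk1, a mitotic kinase, did not pass with all libraries (adjusted p = 0.252). Its D12 values were 41.8, 58.7 and 28, and at D49 replicates 2 and 3 stood at 30.6 and 38.5 while replicate 1 stood at 2.99. Without those replicates it was called at -3.84 (adjusted p = 3.63e-06).

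Among the S phase genes, E2f2, an E2F family activator, was at 78.4, 77.7 and 93.1 TMM CPM at D12 and at 16.8, 13.9 and 20.1 at D49. All 3 D49 libraries agreed closely, and the change was -2.28 ± 0.18 (adjusted p = 1.03e-07) and -2.33 without replicates 2 and 3. Rrm2, the regulated subunit of ribonucleotide reductase, fell from 74.8, 111 and 109 to 9.88, 17.1 and 32.3 (-2.28 ± 0.25, adjusted p = 1.51e-05; -3.32 without). Uhrf1, which recruits the maintenance DNA methyltransferase, fell from 37, 72 and 42.1 to 4.79, 14.2 and 9.45 (-2.43 ± 0.29, adjusted p = 4.46e-05). Dnmt1, that methyltransferase, fell from 183, 161 and 172 to 119, 119 and 62.2 (-0.79 ± 0.17, adjusted p = 0.00738). The replicative helicase gene Mcm2 lay at 113, 140 and 120 and then 118, 112 and 124 (adjusted p = 0.707). Its log2 fold change of -0.07 has a standard error of 0.11, so the S phase list was not lower throughout. Among genes outside the lists, Racgap1 (cytokinesis) changed by -1.97 and Ccnf (cyclin F) by -2.28 (-3.80 without those replicates), both without overlap.

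These genes had already been falling. From D5 to D12 Birc5 changed by -1.99 (adjusted p = 1.56e-05), Rrm2 by -1.92 (1.89e-05) and Ccna2 by -2.13 (0.00132). The D5 means were 231 ± 4.29 (SD, n = 3) for Birc5, 372 ± 1.72 for Rrm2 and 386 ± 15.6 for Ccna2, in TMM CPM. E2f2 fell by 0.61 on the log2 scale from D5 to D12 (adjusted p = 0.0253). Both steps share the D12 libraries, so they are set side by side only.

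**Figure D1:**
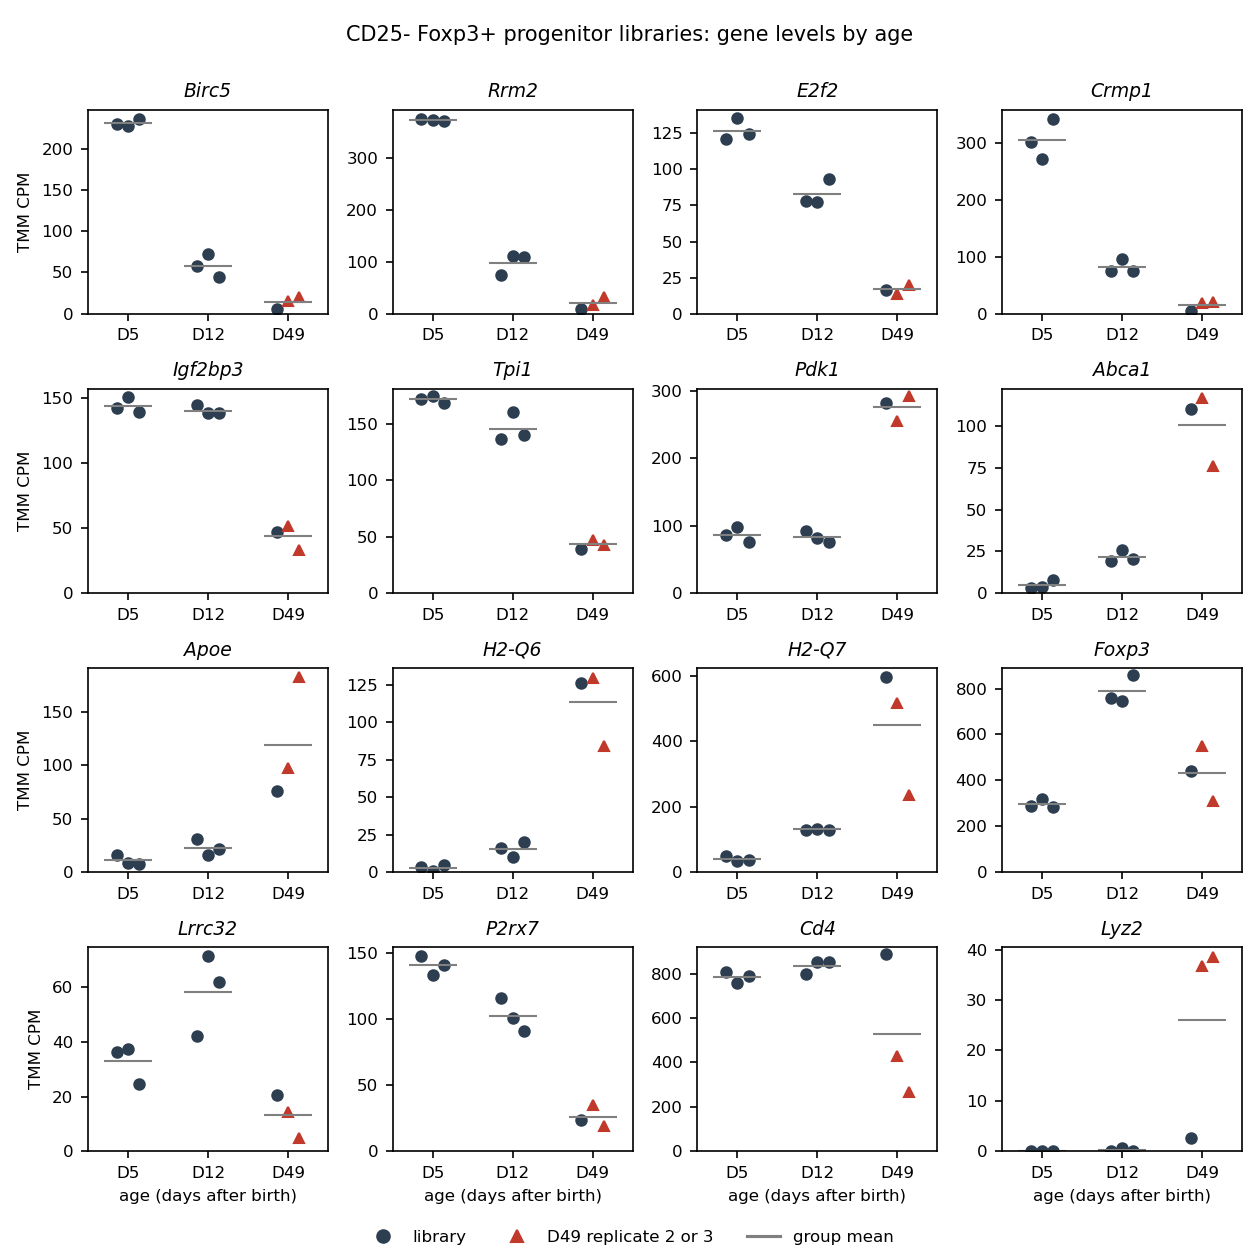
Levels of 16 genes in TMM CPM (vertical axis, from 0) in each P2 library at D5, D12 and D49 (horizontal axis, days after birth); circles are libraries, triangles mark D49 replicates 2 and 3, and grey bars are group means of 3 libraries. Birc5, Rrm2, E2f2 and Crmp1 step down at each age, Pdk1 overlaps between D5 and D12 and is higher at D49, Tpi1 lies slightly lower at D12 than at D5 and far lower at D49, and Cd4 (888 against 428 and 268) and Lyz2 (2.69 against 36.7 and 38.5) split D49 replicate 1 from the other D49 libraries.

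Crmp1, best known as a cytosolic phosphoprotein of growing axons, also fell. It stood at 75.4, 95.9 and 74.8 TMM CPM at D12 and at 5.09, 18.9 and 20.1 at D49 (-2.47 ± 0.33, adjusted p = 0.000179; -4.02 without D49 replicates 2 and 3), from 306 ± 34.7 (SD, n = 3) at D5. The gene lies at chr5:37241940-37292133 on the plus strand (mm10). Kcnf1, a silent potassium channel subunit, fell from 34.6, 57.3 and 49.7 to 5.09, 10.3 and 0 (-3.28 ± 0.58, adjusted p = 0.0017). Its D5 mean was 28.1 ± 7.04, so it did not share the earlier fall (D5 to D12 adjusted p = 0.489).

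Of the fetal and neonatal list, 10 of 20 genes in the table passed the filter; 2 rose and 2 fell, where 8.96% of all genes rose and 5.98% fell. Igf2bp3, an RNA binding protein of the fetal blood programme, was at 144, 139 and 138 TMM CPM at D12 and at 47.3, 51.2 and 33.1 at D49. The change was -1.69 ± 0.16 (adjusted p = 1.48e-06), and -1.59 without D49 replicates 2 and 3. Its D5 mean was 144 ± 6.23, so the level was flat until D12 and lower at D49. P1 changed by -1.64, and the changes of both populations were not distinguished (adjusted p = 0.918). Zbtb20, a zinc finger repressor, rose from 168, 157 and 166 to 304, 338 and 377 (1.05 ± 0.15, adjusted p = 0.000147; 0.88 without those replicates). Hmga1, a chromatin protein abundant in dividing cells, fell from 29.6, 30.1 and 24.3 to 20.4, 16.7 and 17.2 (adjusted p = 0.031), a call lost without D49 replicates 2 and 3 (adjusted p = 0.472) and on leaving out D12 replicate 1 or 2 or D49 replicate 2 or 3 alone (adjusted p = 0.0978, 0.107, 0.0742 and 0.0827). Lin28b, an upstream regulator of that programme, was called higher on 1.5, 7.83 and 8.21 TMM CPM at D49 against at most 0.443 at D12. That call was lost without the libraries that stand apart (adjusted p = 0.424) and without D12 replicate 1 or 3 (adjusted p = 0.0791 and 0.0782), and P1 did not share the direction (-2.69, adjusted p = 0.0972).

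Glycolysis genes fell in 10 of 22 and rose in 1, where 5.98% of all genes fell and 8.96% rose. The counts were the same without D49 replicates 2 and 3, against 2.31% and 0.707% of all genes, and 9 members were called in both fits. Median log2 fold change was -0.46. Tpi1, triosephosphate isomerase, was at 137, 161 and 140 TMM CPM at D12 and at 39.2, 47.3 and 42.5 at D49. The highest D49 library was far below the lowest D12 library, and the change of -1.76 ± 0.13 had an adjusted p of 5.93e-08. Eno3, an enolase, fell from 132, 157 and 223 to 37.4, 56.2 and 57.9 (-1.76 ± 0.17, adjusted p = 1.48e-06). Pgk1, phosphoglycerate kinase, fell from 67.8, 80.4 and 79.6 to 37.7, 43.8 and 51 (-0.78 ± 0.14, adjusted p = 0.0017). Tpi1 and Pgk1 belong to multigene families with processed copies, and how the counting shared such reads is not known. Slc16a3, a lactate exporter, fell from 51.9, 48.5 and 47.3 to 18, 32.4 and 11.9 (adjusted p = 0.00344). Gapdh fell from 336, 352 and 342 to 218, 102 and 63.4; the size of this fall rested on D49 replicates 2 and 3, being -1.43 with them and -0.67 without. Ldha, lactate dehydrogenase A, overlapped between the ages and did not pass (adjusted p = 0.975), but was called lower without those replicates (-0.53, adjusted p = 0.0137). Without D12 replicate 3 the list had 6 members lower, and in the 6 libraries alone 2.

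Pdk1 was the member that rose. It encodes a kinase that turns off pyruvate dehydrogenase, the mitochondrial enzyme that converts pyruvate to acetyl-CoA. It stood at 92.8, 81.3 and 75.3 TMM CPM at D12 and at 282, 255 and 293 at D49 (1.74 ± 0.14, adjusted p = 1.03e-07), and the change was the same to 2 decimals without D49 replicates 2 and 3. The level at D5 was 86.8 ± 11.5, close to that at D12. The gene lies at chr2:71873224-71903858 on the plus strand. P1 rose by 0.73 (adjusted p = 0.00102), less than P2 (difference 1.01, adjusted p = 0.00118). Nuclear genes of the respiratory chain were called lower in 3 of 29 and higher in 0, where 5.98% of all genes were lower and 8.96% higher. Only Sdhd, a subunit of complex II, was called in both fits, and Atp5b and Atp5e were lost without D49 replicates 2 and 3 (-0.25 and -0.26). Sdhd lost the call without D12 replicate 1, 2 or 3 or D49 replicate 2 (adjusted p = 0.069, 0.0918, 0.0521 and 0.0769).

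**Figure D2:**
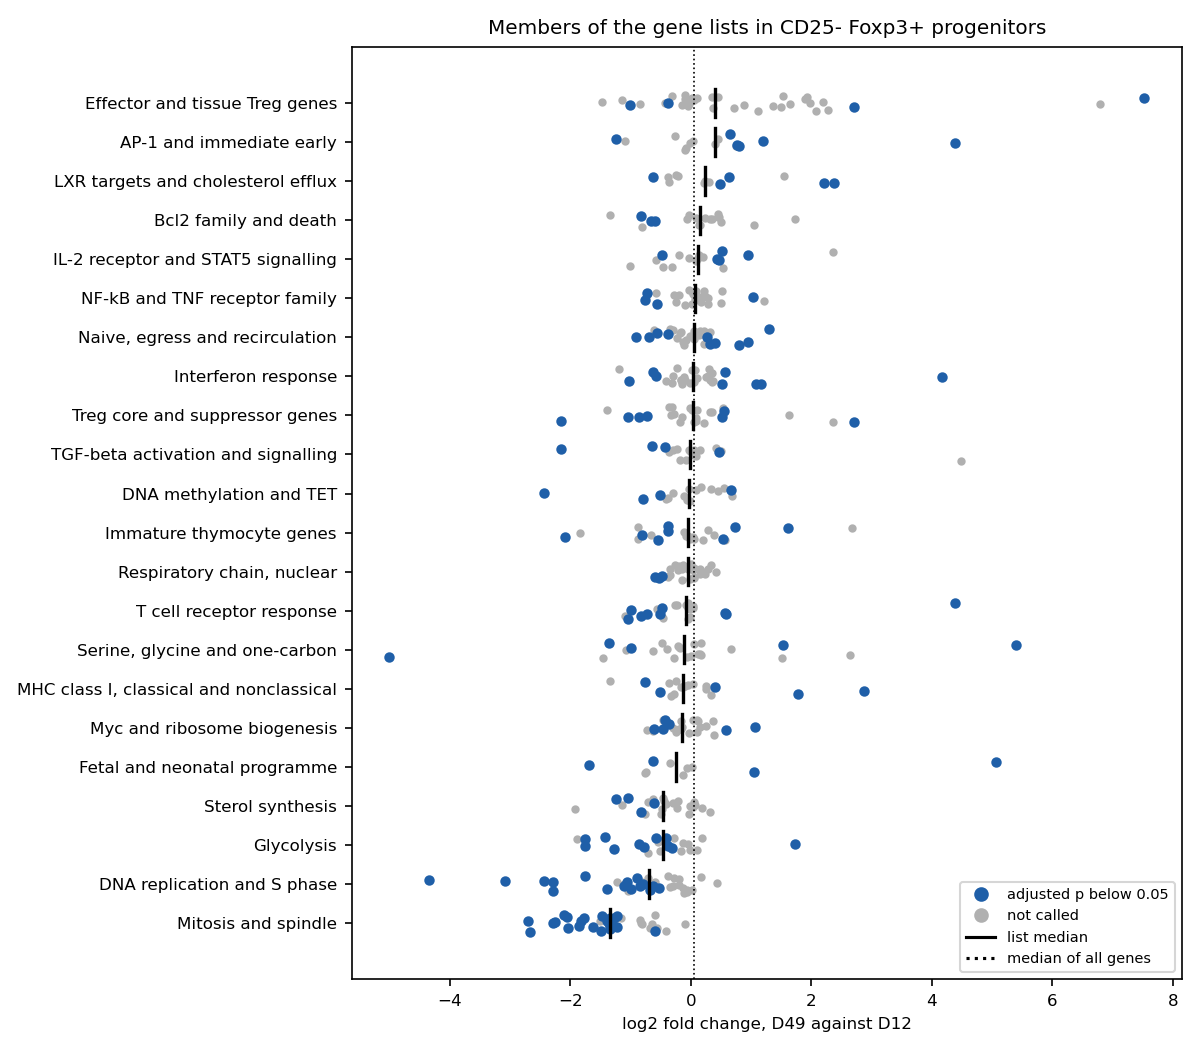
Log2 fold change of D49 against D12 (horizontal axis) for each tested member of 22 gene lists (rows, ordered by median); blue points passed at adjusted p below 0.05, grey points did not, black bars are list medians and the dotted line is the median of all genes (0.06). Mitosis and S phase members lie to the left with medians of -1.35 and -0.69, while most other list medians lie close to the dotted line.

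Some genes of cholesterol export rose. Liver X receptors sense oxidised sterols and switch on exporters of cholesterol; of 13 such targets tested, 4 rose and 1 fell, where 8.96% of all genes rose and 5.98% fell, and 3 rose without D49 replicates 2 and 3. Abca1, the exporter that loads cholesterol onto apolipoproteins, was at 19, 25.9 and 20.2 TMM CPM at D12 and at 110, 117 and 76.1 at D49. No D49 library came near the D12 range, and the change was 2.22 ± 0.32 (adjusted p = 0.000222) and 2.33 without those replicates. It had risen already from a D5 mean of 4.74 ± 2.85 (D12 against D5, 2.18, adjusted p = 0.00073). Abca1 lies at chr4:53030787-53159895 on the minus strand. Abcg1, a second exporter, rose from 241, 257 and 257 to 379, 368 and 423 (0.63 ± 0.12, adjusted p = 0.0018). Apoe, the lipid carrier apolipoprotein E, rose from 30.9, 15.9 and 21.7 to 75.7, 97.9 and 183 (2.38 ± 0.33, adjusted p = 0.000146). Apoe was highest in the libraries with the most macrophage marker RNA, D49 replicates 2 and 3. Without them its change was 1.71. D49 replicate 1, which that fit keeps, also held such RNA. C1qa, C1qb and C1qc were at 4.61, 3.74 and 4.89 CPM in it and at 0 in every D12 library. Macrophages express Apoe and Abca1 strongly. Abca1 was at 110 TMM CPM in D49 replicate 1, 117 in replicate 2 and 76.1 in replicate 3. The macrophage markers summed to 511, 788 and 834 CPM in these libraries and to 324 to 361 CPM at D12. Most of each sum was Ctss, at 480, 636 and 664 CPM at D49 and 319 to 354 CPM at D12. What macrophage RNA contributed to either rise was not tested. Mylip, which degrades the low-density lipoprotein receptor, rose with all libraries (0.49, adjusted p = 0.0446) and not without D49 replicates 2 and 3 (adjusted p = 0.126).

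Sterol synthesis genes pointed the other way, in few members. Of 24 tested, 4 fell and 0 rose (median -0.45), against 5.98% lower among all genes. Hmgcs1, the synthase of the first committed intermediate, fell from 51.5, 49.6 and 53.5 to 32.6, 35.9 and 32.6 (-0.61 ± 0.14, adjusted p = 0.0102; 0.0726 without D49 replicates 2 and 3). Insig1, a sterol sensor, fell from 26, 12.8 and 17 to 8.98, 6.76 and 7.71 (adjusted p = 0.0153; 0.0861 without D12 replicate 1). Sc5d and Sqle were the others, and each lost the call on leaving out D12 replicate 1 or D12 replicate 2 (Sc5d 0.0565 and 0.0602, Sqle 0.162 and 0.0932, adjusted p), Sqle also without D49 replicate 1 (0.0644) or D49 replicate 2 (0.117). The 3 members called lower without D49 replicates 2 and 3 were different genes, Cyp51 and Msmo1 among them, so 0 members were called in both fits.

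The regulatory T cell genes did not move as one. Of 26 tested, 3 rose and 4 fell, with a median of 0.03, where 8.96% of all genes rose and 5.98% fell. Foxp3, given above by library, fell by 0.86 on the log2 scale (SE 0.19, adjusted p = 0.00734) with no overlap of the ages, and by 0.86 without D49 replicates 2 and 3 (adjusted p = 0.0344). It had risen from 297 ± 17.8 TMM CPM at D5 to D12 (1.41, adjusted p = 8.6e-05), so D12 was the highest of the 3 ages. Cells were gated on the Foxp3 reporter at all ages, so these are levels within reporter-positive cells. Foxp3 lies at chrX:7573644-7595245 on the plus strand. Lrrc32 encodes GARP, the surface anchor of latent TGF-beta on regulatory T cells. It fell from 42, 71.3 and 61.9 to 20.7, 14.2 and 4.97 (-2.16 ± 0.32, adjusted p = 0.000227; -1.52 without those replicates). Izumo1r, folate receptor 4, rose from 371, 364 and 368 to 532, 488 and 596 (0.55 ± 0.12, adjusted p = 0.00553; 0.51 without). Tnfrsf9 (4-1BB) and Ikzf2 (Helios) also fell, by 0.72 and 1.05 on the log2 scale. Ikzf2 was at 451, 528 and 440 at D12 and at 345, 222 and 121 at D49. D49 replicate 1 was nearest the D12 range, and the Helios call was lost without replicates 2 and 3 (-0.47, adjusted p = 0.147) and without D12 replicate 2 (adjusted p = 0.0583), as was that of Tnfrsf9 (adjusted p = 0.288). Il2rb and Tigit rose with all libraries only: Tigit, an inhibitory receptor, was at 7.48, 42.3 and 34.8 at D49 against 3.23 to 5.42 at D12, and without replicates 2 and 3 its adjusted p was 0.787. Leaving out any single library except D49 replicate 1 also ended the Tigit call (adjusted p = 0.0539 to 0.0782), and leaving out D12 replicate 1, D12 replicate 2 or D49 replicate 2 that of Il2rb (0.0527, 0.0723 and 0.094). The coreceptor gene Cd4 showed the same split, at 888, 428 and 268 against 800, 853 and 851. Ctla4 (88.1, 87.9 and 86.2, then 113, 115 and 76.8), Il2ra (adjusted p = 0.0918) and Itgb8 (adjusted p = 0.827), the integrin that activates TGF-beta, did not pass. Gpr83, Tnfrsf4 and Capg were called lower only without those replicates (-0.64, -0.53 and -0.70).

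**Figure D3:**
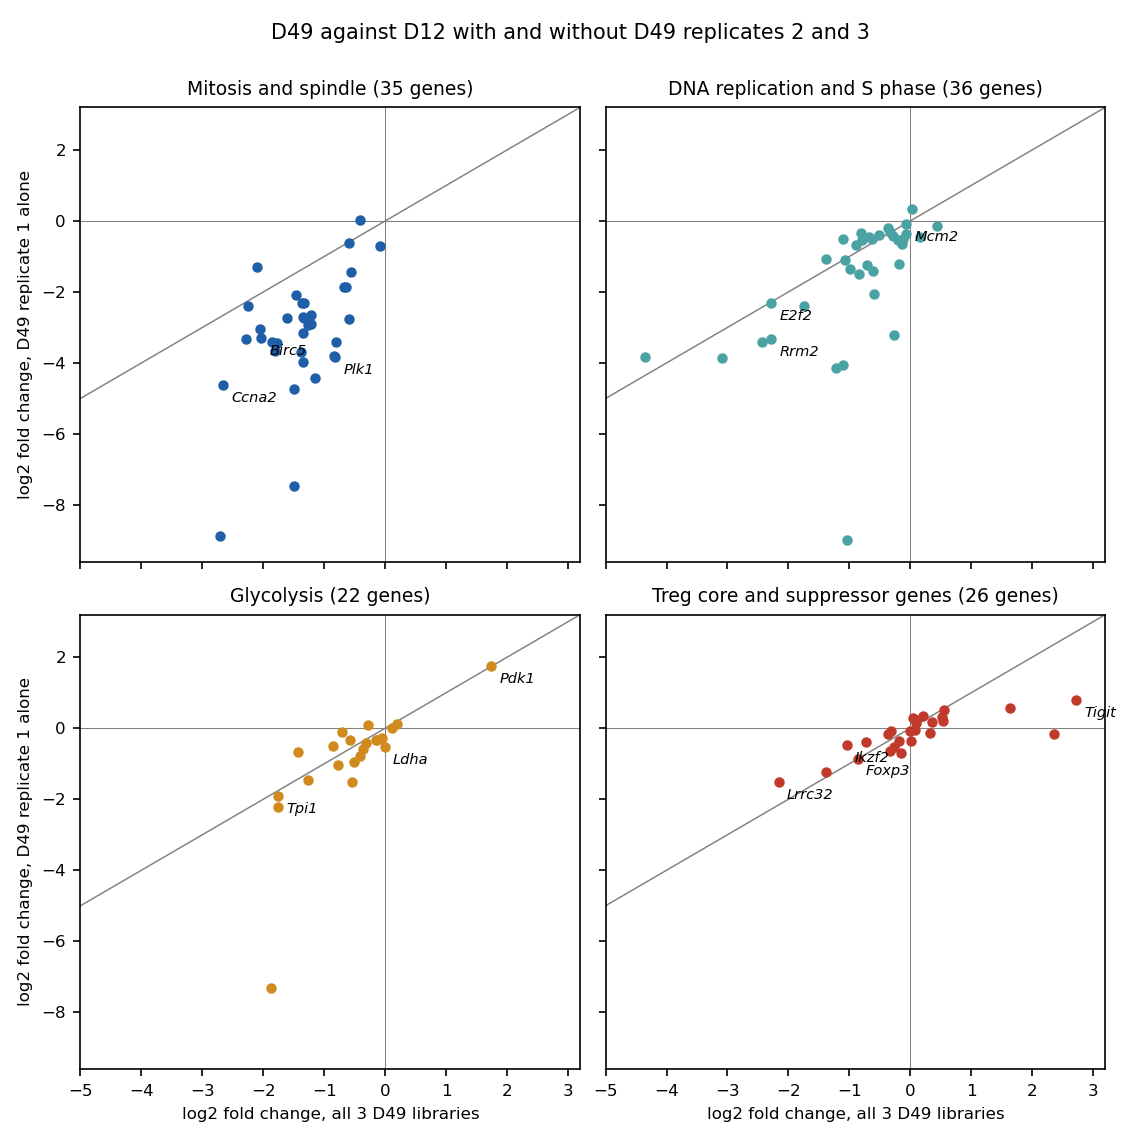
Log2 fold change of D49 against D12 with all 3 D49 libraries (horizontal axis) and with D49 replicate 1 alone (vertical axis) for the members of 4 lists (panels, 1 point per gene); the grey diagonal marks equal values. Most mitosis genes lie below the diagonal (medians -1.35 and -2.93), Tpi1, Pdk1, E2f2 and Foxp3 lie near it, and Tigit (2.71 and 0.78) lies far from it.

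Genes that report T cell receptor signalling were called higher in 3 of 23 and lower in 6, where 8.96% and 5.98% of all genes were. Nr4a1, an immediate target of the receptor, had 912, 727 and 1091 TMM CPM at D12 and 484, 858 and 574 at D49 (-0.51 ± 0.16, adjusted p = 0.0358), and fell by 0.93 on the log2 scale without D49 replicates 2 and 3 (adjusted p = 0.00215). Dusp5, a phosphatase of ERK, fell from 40.9, 33.2 and 46.4 to 16.8, 30.2 and 14.4 (-0.99 ± 0.23, adjusted p = 0.00996; -1.28 without). Jun rose from 1.36, 0 and 0 to 13.5, 2.14 and 13.7 (adjusted p = 0.0146), but not without D12 replicate 2 or 3 (adjusted p = 0.0676 and 0.0609). Nfatc1 (0.57) and Cd69 (0.59) rose and Cd5 (-0.48) and Bcl2l11 (-0.82) fell only with all libraries, and Bcl2l11 lost the call on leaving out any single library except D49 replicate 1 (adjusted p = 0.0572 to 0.109). In all, 3 members, Jun, Dusp5 and Nr4a1, were called in both fits. Of the interleukin 2 and STAT5 list, 4 of 17 rose and 1 fell, beside the same 8.96% and 5.98% of all genes. Il7r, the interleukin 7 receptor, rose from 50.8, 68.4 and 42.1 to 121, 88.2 and 101 (0.95 ± 0.19, adjusted p = 0.00338; 1.15 without). Jak3, the kinase of the common gamma chain, fell from 464, 457 and 515 to 326, 446 and 263 (-0.48 ± 0.13, adjusted p = 0.0213; -0.57 without). Jak1, Il2rb and Il2rg rose with all libraries and lost the call without D49 replicates 2 and 3; Jak1 also lost it without D12 replicate 2 (adjusted p = 0.0601) and Il2rg without D12 replicate 1 or 2 or D49 replicate 3 (0.0733, 0.0655 and 0.0775).

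H2-Q6 and H2-Q7 encode Qa-2, a nonclassical MHC class I molecule of mature lymphocytes, and both rose. H2-Q6 was at 16, 10.2 and 19.8 TMM CPM at D12 and at 126, 130 and 84.3 at D49 (2.88 ± 0.35, adjusted p = 3.31e-05; 3.01 without D49 replicates 2 and 3). H2-Q7 was at 129, 133 and 130 and then at 596, 517 and 237 (1.78 ± 0.24, adjusted p = 0.000179; 2.17 without). The lowest D49 library exceeded the highest D12 library in both genes. Their D5 means were 2.86 ± 2.09 and 40.3 ± 7.9, so both rose at each step (D12 against D5, 2.38 and 1.69, adjusted p = 0.00108 and 0.000309). They are neighbours at chr17:35424850-35430055 and chr17:35439155-35443773, both on the plus strand. Of the distinct 50-base stretches in all annotated transcripts of each gene, 13.9% of those of H2-Q6 occurred in H2-Q7 too and 6.31% the reverse, so the split of reads between them is uncertain. The 2 promoters are printed because both genes rose together. Over the 120 bases shown, 117 are identical, and capitals mark the 3 that differ (RefSeq, GRCm38.p6, plus strand, chr17:35424691-35424810 and chr17:35439035-35439154).
H2-Q6: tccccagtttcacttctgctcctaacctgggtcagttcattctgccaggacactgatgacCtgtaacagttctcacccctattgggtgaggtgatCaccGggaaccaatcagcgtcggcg
H2-Q7: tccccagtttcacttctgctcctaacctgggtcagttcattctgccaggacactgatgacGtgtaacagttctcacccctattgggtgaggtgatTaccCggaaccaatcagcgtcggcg
Of the class I list, 3 of 19 rose and 2 fell, where 8.96% of all genes rose and 5.98% fell. H2-M3 was the third that rose (0.41, adjusted p = 0.0418) and was lost without D49 replicates 2 and 3 and on leaving out any single library except D49 replicate 1 (adjusted p = 0.0953 to 0.141). H2-T23 and Tap2 fell only with all libraries. The classical gene H2-K1 and B2m, its light chain, did not pass (adjusted p = 0.891 and 0.779). H2-K1 was called higher without D49 replicates 2 and 3 (0.37, adjusted p = 0.012).

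Interferon-stimulated genes were called in 8 of 32, 5 higher and 3 lower, where 14.9% of all genes were called, and in 1 of 32 without D49 replicates 2 and 3, about the 3.02% of all genes. That member, Ifi44, rose from 7.23, 1.77 and 1.08 to 34.7, 85.8 and 61.7 TMM CPM (4.17 ± 0.64, adjusted p = 0.000762; 3.34 and 0.0331 without). Isg15, a ubiquitin-like modifier, fell from 128, 112 and 151 to 71.3, 77.6 and 44.8 (adjusted p = 0.00552; 0.0912 without). Ifit1, Rsad2 and Oas3, which mark an interferon response, overlapped between the ages. Ifi44 thus rose while most of its list did not pass.

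Other named genes that rose spanned several roles. Vmn2r97, annotated as a vomeronasal receptor, was at 42.7, 46.3 and 48.6 TMM CPM at D12 and at 321, 225 and 168 at D49 (2.37 ± 0.20, adjusted p = 2.06e-07). It belongs to a large multigene family, and reads of related copies may be counted in it. Tmie rose from 14.7, 17.7 and 14.2 to 144, 58 and 44.3 (2.40 ± 0.38, adjusted p = 0.000551) and Als2cl from 148, 140 and 121 to 463, 286 and 265 (1.31 ± 0.19, adjusted p = 0.000188). In both genes D49 replicate 1 was the highest library. Tmie and Als2cl overlap at their starts on opposite strands (chr9:110865711-110880113, minus, and chr9:110879870-110900530, plus), and whether strand was used in counting is not given in the sources used here. Gimap7, a GTPase of lymphocyte survival, rose from 82.4, 86.1 and 77.6 to 169, 183 and 251 (1.3 ± 0.18, adjusted p = 0.000146). Dusp1, a phosphatase of MAP kinases induced by stress and glucocorticoids, rose from 110, 104 and 96.3 to 254, 210 and 247 (1.2 ± 0.18, adjusted p = 0.000318). Wls, needed for Wnt secretion, rose from 27.3, 36.3 and 31.6 to 93.1, 70.1 and 50.5 (adjusted p = 0.0113), a call lost without D12 replicate 1 (adjusted p = 0.0533). Rflnb rose from 4.74, 9.3 and 1.94 to 27.8, 32.7 and 44.8, and Jade2 from 24.6, 23.7 and 28.6 to 56.6, 62.6 and 60.9. Slc28a2b, annotated as a nucleoside transporter with a close copy, rose from 35.2, 33.2 and 19.1 to 93.1, 64.8 and 75.6 (adjusted p = 0.00996), and was lost without D12 replicate 3 (adjusted p = 0.0573). Fgf13, a growth factor relative that acts inside cells, was at 2.26, 6.64 and 6.45 and then at 31.7, 29.2 and 27.9 (2.52 ± 0.51, adjusted p = 0.00459; 2.61 without).

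Among the other genes that fell were receptors and signalling regulators. P2rx7, the channel opened by extracellular ATP, fell from 116, 101 and 91.4 to 23.9, 35.2 and 19.1 TMM CPM (-1.99 ± 0.21, adjusted p = 4.63e-06; -2.12 without). F2r, a thrombin receptor, fell from 45.4, 63.5 and 37.4 to 9.88, 8.54 and 14.4 (-2.13 ± 0.26, adjusted p = 3.44e-05; -2.32 without). Rgs16, which ends G protein signalling, fell from 88.3, 82.4 and 82.8 to 24.5, 24.6 and 13.9 (-2.02 ± 0.18, adjusted p = 3.84e-07; -1.80 without). In these genes the highest D49 library was under the lowest D12 library, and D49 replicate 1 lay within the range of the other D49 libraries. Emilin1, an extracellular matrix protein, fell from 64.6, 42.7 and 77.6 to 19.5, 5.69 and 18.6 (adjusted p = 0.000188). The genes lie at chr5:122643911-122691432 (P2rx7, plus), chr13:95601803-95618487 (F2r, minus) and chr1:153740349-153745468 (Rgs16, plus).

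The remaining lists had few calls that held in both fits, and their counts are to be read beside the 8.96% of all genes called higher and the 5.98% called lower. Of genes of naive cells and egress, 6 of 30 rose and 4 fell; Gimap7 and Il7r were called in both fits, and the falls of Klf13, Tcf7, Klf2 and S1pr4 were lost without D49 replicates 2 and 3. Tcf7 also lost the call without D12 replicate 2 or 3 or D49 replicate 2 or 3 (adjusted p = 0.0642, 0.0756, 0.075 and 0.0643). Of immature thymocyte genes, 3 of 25 rose and 5 fell. Dntt, which adds bases to receptor joints, rose at a low level, from 2.26, 2.88 and 1.51 to 11.4, 3.2 and 5.72 (adjusted p = 0.0486). Slamf6 rose from 229, 254 and 208 to 324, 354 and 318 (adjusted p = 0.00274), and Gata3, which drives CD4 lineage choice, fell from 360, 355 and 357 to 211, 294 and 320 (-0.38, adjusted p = 0.0336; -0.78 and 6.3e-05 without D49 replicates 2 and 3). Gata3 lost the call with size factors of the RLE kind (adjusted p = 0.0638) and without D12 replicate 1, 2 or 3 or D49 replicate 1 (adjusted p = 0.0506 to 0.0802). Effector and tissue regulatory T cell genes were called higher in 2 of 34 and lower in 2. Lgals1, galectin 1, fell from 171, 175 and 157 to 63.5, 85 and 101 (-1.01 ± 0.13, adjusted p = 7.15e-05; -1.42 without). Il1rl1, the receptor of interleukin 33, had counts of 0 in all D12 libraries and 1.8, 2.85 and 10.4 TMM CPM at D49, a call lost without D49 replicates 2 and 3 (adjusted p = 0.107). Of NF-kB and TNF receptor genes, 1 of 27 rose and 3 fell. Traf1, an adaptor of TNF receptors, rose from 139, 153 and 151 to 385, 280 and 237 (1.03 ± 0.17, adjusted p = 0.000622; 1.37 without). Kmt2d, a histone methyltransferase, rose from 834, 763 and 785 to 1096, 1472 and 1232 (0.67 ± 0.09, adjusted p = 0.000109; 0.45 without), as 1 of 17 genes of DNA methylation and chromatin, of which 3 fell, Uhrf1, Dnmt1 and Dnmt3a. Dnmt3a lost the call without D12 replicate 3, D49 replicate 2 or D49 replicate 3 (adjusted p = 0.0642, 0.0525 and 0.0565). The call was also lost without both D49 replicates 2 and 3, where the change of Dnmt3a was -0.16 against -0.50 with all libraries. Of serine and one-carbon genes, 2 of 24 rose and 3 fell, led by Gcat, which cleaves a threonine product, at 20.3, 16.6 and 13.1 and then 1.5, 0 and 0 (adjusted p = 0.000109; 0.0105 without D49 replicates 2 and 3). Of AP-1 and immediate early genes, 5 of 15 rose and 1 fell, with Dusp1 and Jun called in both fits. The Myc and ribosome biogenesis list (2 of 24 higher, 4 lower) and the Bcl2 family (0 of 19 higher, 3 lower) had 0 members called in both fits, and of TGF-beta genes (1 of 18 higher, 3 lower) Lrrc32 alone was.

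The age change was set beside that of P1, which was called in 23.8% of genes; the difference between the changes was called in 28.4%. All 3 P1 libraries of D12 and D49 replicates 2 and 3 of P2 stood apart in detected genes, so these shares cannot be told apart from the libraries. Of the 220 genes held to the stricter rule, 109 were called in the same direction in P1, 15 in the opposite one, and 102 had a called difference. These genes were chosen by their change in P2, which is also part of the difference. A share of called differences above that of all genes is therefore built into the choice. Mitosis genes fell in 34 of 35 in P1 (median -1.67) and S phase genes in 31 of 36 (median -1.18), where 13.5% of all genes fell. Birc5, Racgap1, Rrm2, Igf2bp3, Abca1 and Jade2 changed by -1.94, -1.90, -1.85, -1.64, 1.94 and 1.17 in P1, and for none of these 6 was the difference called. Without D49 replicates 2 and 3 of P2 it was called for Birc5 (-1.38, adjusted p = 0.0152) and Rrm2 (-1.51, adjusted p = 0.000368).

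For other named genes the change in P2 differed from that in P1. Most of these were named by the size of their P2 change, which the difference contains. Rgs16 rose in P1 from 95.2, 80.3 and 72.7 TMM CPM to 138, 179 and 159 while it fell in P2, a difference of -2.96 (adjusted p = 4.39e-07). P2rx7 was at 31.7, 51.3 and 34.6 and then 44.6, 57.7 and 50.1 in P1, a difference of -2.37 (adjusted p = 0.000116). F2r was at 22.2, 30.9 and 26.5 and then 23.3, 27.3 and 36, a difference of -2.27 (adjusted p = 0.000368). Without D49 replicates 2 and 3 of P2 these differences were -2.76, -2.53 and -2.49 and all were called. E2f2 fell more in P2 (difference -1.60, adjusted p = 0.000335; -1.67 without). Dusp1 rose in P2 and was at 239, 287 and 299 and then 240, 211 and 191 in P1 (difference 1.56, adjusted p = 0.000428; 1.61 without). H2-Q7 rose more in P1, from 12.9, 10 and 10.5 to 212, 265 and 220 (difference -2.58, adjusted p = 0.000295; -2.21 without). At D49 H2-Q7 in P2 replicates 1 and 2 (596 and 517) was above all P1 libraries, and replicate 3 (237) lay within their range. Foxp3 fell in P2 and moved by 0.64 in P1 (adjusted p = 0.0813), at levels of at most 19 TMM CPM there; the difference was -1.51 (adjusted p = 0.00264).

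**Figure D4:**
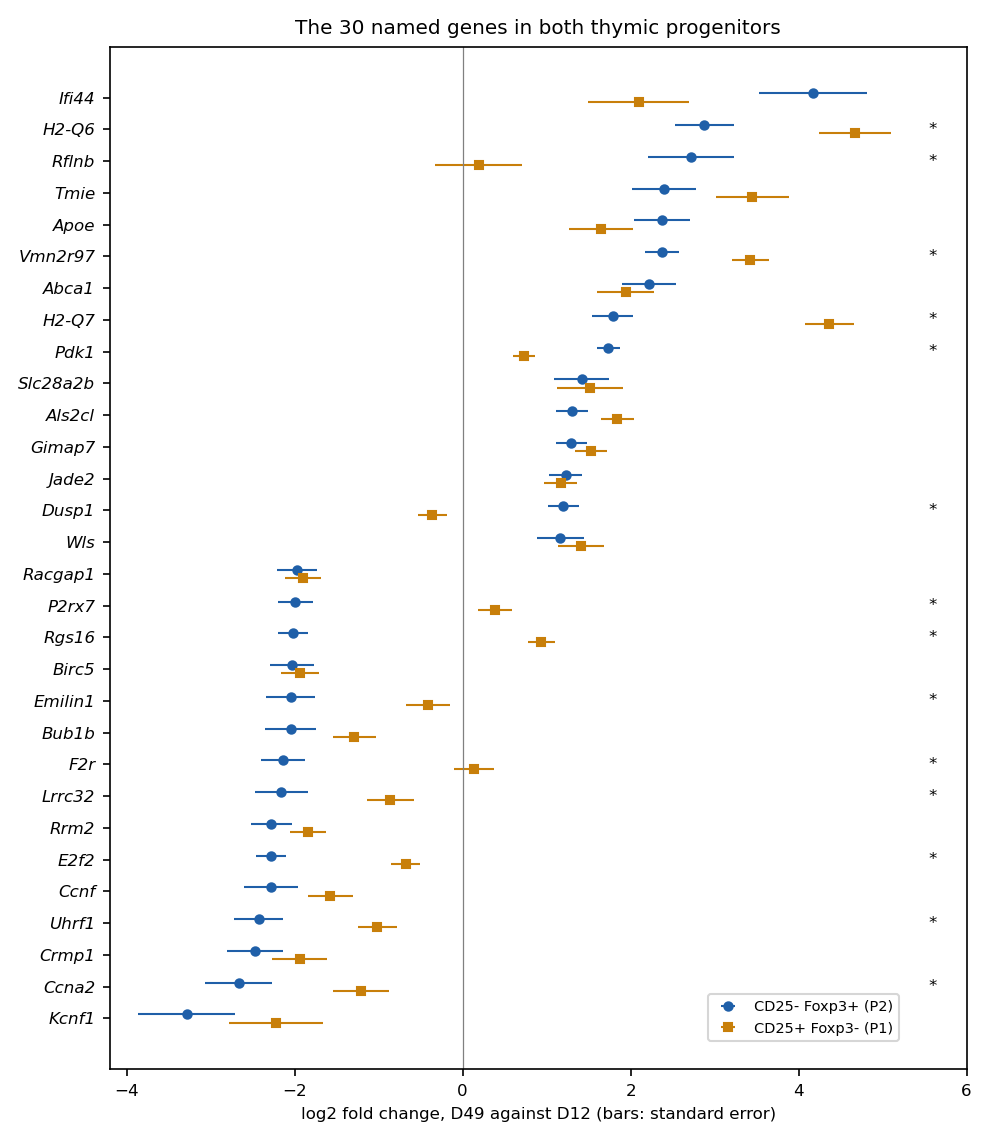
Log2 fold change of D49 against D12 (horizontal axis, bars are standard errors of the fit) for the 30 named genes (rows) in P2 (circles) and P1 (squares), with 3 libraries a group; a star marks a called difference between the changes. Birc5, Racgap1, Jade2 and Slc28a2b lie together in both populations, whereas Rgs16 (-2.02 and 0.94), P2rx7 (-1.99 and 0.38), F2r (-2.13 and 0.13) and Dusp1 (1.2 and -0.36) lie apart.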

How the data were processed

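Bulk RNA-seq of sorted thymus cells was aligned and counted by the authors; the submitters' processing notes name STAR 2.7.3a, featureCounts and mm10. Which gene models they counted on, whether strand was used and how multi-mapped reads were treated is not given in the sources used here. The authors deposited raw read counts per gene symbol, and those counts were used as they stand. Of 55011 symbols, 52936 matched GENCODE M21, holding 99.26% of the counts. Genes were filtered with filterByExpr (minimum count 10, total 15), scaled by TMM and fitted with edgeR 4.0.16 (robust quasi-likelihood F test, two-sided) in one model of 18 thymus libraries with 1 coefficient a group; p-values were Benjamini-Hochberg adjusted over all genes tested, with calls below 0.05. Fold changes are D49 over D12 on the log2 scale. Depth was 2817171 to 4697828 counts in the 6 libraries, which limits genes of a few CPM. In simulated counts (13665 genes), each gene had 1 mean over all 18 thymus libraries, and changes were put into genes of 20 CPM or more. Of these, 78% of 2-fold and 100% of 4-fold changes were recovered, with 7 false calls. The traits that set D49 replicates 2 and 3 apart were not simulated. The result therefore does not cover false calls from those libraries, or the recovery of weaker genes. The labels do not say that replicates came from separate animals, so p-values measure the spread between libraries, which may be technical. No pair of replicates agreed within sampling noise. The chi-square per degree of freedom was 5.37 to 9.03 between D12 libraries. Between D49 libraries it was 14.8 (replicates 1 and 2), 38.6 (1 and 3) and 16.5 (2 and 3). What this wider spread at D49 contributed to the calls was not tested.

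Named genes were (a) the 15 largest changes in each direction among genes called, at a mean of 20 TMM CPM or more, without overlap and called in the same direction without D49 replicates 2 and 3, leaving out numbered models, pseudogenes and receptor segments; (b) up to 4 members of each list with the smallest adjusted p; (c) 14 genes set by name; and (d) the 5 largest differences from P1 in each direction, of which 1 in each direction is not reported here. Members named beyond these were chosen after their values were seen, as were the 3 lists of the closing section. The comparison, the 22 pathway lists and the 13 marker lists were chosen with earlier results of these data known, so no set test was made. Promoters were taken from the RefSeq table of build GRCm38.p6, 1 per gene, and searched with a script. Alternatives were RLE size factors, 2 other filters, DESeq2 1.42.0, limma-voom (limma 3.58.1), the 6 libraries alone, a replicate block, and leaving out libraries.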

Additional observations from a re-analysis of the deposited data

Results flagged for a closer look

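Each result here is a called difference between the D49 against D12 change of P2 and that of P1 (edgeR interaction contrast, adjusted p below 0.05, 28.4% of genes called), given in log2 units as the change of P2 minus the change of P1. For 14 of them the gene is one of the 30 named by size, so it was chosen by a P2 change that the difference contains. In P2 the division genes Ccna2 (-1.46, adjusted p = 0.0484), Uhrf1 (-1.41, 0.00843) and E2f2 (-1.60, 0.000335) fell more than in P1. Most called members of their lists went the other way. Of 36 S phase genes the difference was called positive in 13 and negative in 4. Of 35 mitosis genes it was positive in 2 and negative in 1. Among all genes it was positive in 17.3% and negative in 11.1%. The Ccna2 difference was not called in 14 alternatives (adjusted p = 0.0539 to 0.136), among them RLE size factors, DESeq2, limma-voom and 8 that leave out 1 library, and limma-voom did not call that of Uhrf1 (0.196). The differences of the receptors and regulators were -2.27 for F2r (0.000368), -2.37 for P2rx7 (0.000116), -2.96 for Rgs16 (4.39e-07), -1.63 for Emilin1 (0.00435) and -1.30 for Lrrc32 (0.0236). The rise was smaller in P2 for H2-Q6 (-1.79, 0.0187), H2-Q7 (-2.58, 0.000295) and Vmn2r97 (-1.05, 0.00871), and larger in P2 for Rflnb (2.53, 0.0119), Pdk1 (1.01, 0.00118) and Dusp1 (1.56, 0.000428). Without D49 replicates 2 and 3 of P2, the differences of H2-Q6 (adjusted p = 0.112), Rflnb (0.106), Lrrc32 (0.245) and Vmn2r97 (0.14) were no longer called. Limma-voom did not call those of H2-Q6 (0.132) and Lrrc32 (0.0515), and Lrrc32 was also lost in the compared libraries alone (0.054) and without D12 replicate 2 of P2 (0.0538).

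The others were among the largest differences at 20 TMM CPM or more. In all of them except Zfp622, D49 replicate 1 of P2 lay to one side of replicates 2 and 3 by 2-fold or more. Ttn, the giant protein of muscle, differed by 7.53 (adjusted p = 0.000584); it was at 7.48, 104 and 202 TMM CPM in the D49 libraries of P2, and without replicates 2 and 3 its change in P2 was 0.44 (adjusted p = 0.801) and the difference from P1 was 3.68 (0.000172). Ryr2, a calcium channel, differed by 3.59 (0.0103), Uri1 by 3.18 (0.000295) and Zfp622 by 3.07 (0.0015). Ryr2 was at 1.5, 29.9 and 36.6 TMM CPM in the D49 libraries of P2; its difference was -0.37 (0.991) without replicates 2 and 3 and was not called without replicate 3 alone (0.0545). Zfp622 was not called without both replicates (0.0575). On the other side Arglu1 differed by -4.06 (0.000581), Snhg6 by -3.95 (0.000373), Dpysl2 by -3.67 (0.000762) and Pdcd4 by -3.65 (0.0027). The D49 libraries of P2 held 128, 50.2 and 19.1 TMM CPM of Arglu1, 28.4, 6.76 and 5.22 of Snhg6, and 112, 42 and 18.4 of Dpysl2. Pdcd4 was at 234 TMM CPM in D49 replicate 1 of P2, near its D12 values of 215, 224 and 168, and at 47 and 39 in replicates 2 and 3. The part of these libraries in the differences was not tested further.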

How the results depend on the processing

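The 30 genes named by size kept their direction in every alternative run, and all 30 stayed called except in the fit of the 6 libraries alone (21), without D12 replicate 1 (29, losing Wls) and without D12 replicate 3 (29, losing Slc28a2b). The rule that named them asked for a call without D49 replicates 2 and 3, so that alternative could not lose any. It also asked for no overlap, which largely fixes the direction when a library is left out. The number of genes called varied between the alternatives. Against 2196 called genes (59.97% higher), no filter on low counts gave 3492, a floor of 20 CPM 1070 (44.49% higher), the 6 libraries alone 79, and leaving out both D49 replicates 2 and 3 gave 538 (23.42% higher). Leaving out 1 library at a time gave 703 (without D12 replicate 2) to 5317 (without D49 replicate 1), with 885 and 951 without D12 replicates 1 and 3, and 1424 and 1126 without D49 replicates 2 and 3 in turn. RLE size factors gave 2290, DESeq2 2577 and limma-voom 2447. The difference from P1, 4176 genes, became 8766 without a filter, 2205 at the floor of 20 CPM and 1177 without both D49 replicates 2 and 3; leaving out 1 library gave 3921 to 6987, the highest without D49 replicate 1. The cause of these shifts was not tested, beyond the smaller number of genes or libraries that an alternative fits. Values that turned sign included those of Cd4 (0.071 without both D49 replicates 2 and 3), Ctla4 (-0.00765 with no filter), Itgb8 (0.261 without D12 replicate 3, against -0.489 without D49 replicate 3) and, for the difference from P1, Ryr2 (-0.37 without both D49 replicates). Without both, the change of Pdcd4 went from -0.92 to 0.19, of Fkbp5 from -0.36 to 0.29 and of H2-K1 from -0.05 to 0.37. Of these, the Ryr2 difference alone had passed with all libraries. A replicate block gave 1775 calls. No pairing by replicate number was seen: deviations of same-numbered libraries correlated at 0.034, 0.0065 and -0.026 over 7255 genes, and D49 replicate 2 correlated best with D12 replicate 3 (0.050). With 3 libraries a group, such correlations cannot exclude a shared sort or preparation of same-numbered libraries.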

Other observations

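The genes here were looked up after the values of Gimap7, Dusp1 and Rgs16 had been seen, so they are given as values with no support drawn from them. Of 8 Gimap genes, GTPases encoded in one cluster that act in lymphocyte survival, Gimap1, Gimap3, Gimap4 and Gimap7 passed as higher at D49, by 0.31, 0.40, 0.31 and 1.3 on the log2 scale. Among all genes tested, 8.96% were called higher. Gimap5, Gimap6, Gimap8 and Gimap9 did not pass (adjusted p = 0.208, 0.0767, 0.0747 and 0.913). Without D49 replicates 2 and 3, Gimap7 alone of these 8 was called.

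Of 12 genes known to respond to glucocorticoids, the receptor included, 6 were called higher at D49 and 6 did not pass, where 8.96% of all genes were called higher. Tsc22d3 (GILZ) was at 227, 287 and 223 TMM CPM at D12 and at 635, 460 and 490 at D49 (1.11 ± 0.15, edgeR adjusted p = 8.82e-05; 1.35 without D49 replicates 2 and 3). Nr3c1, the glucocorticoid receptor, rose from 60.3, 61.5 and 61.1 to 99.4, 99.6 and 111 (0.76 ± 0.15, adjusted p = 0.00353), a call lost without those replicates (adjusted p = 0.075). Per1 (adjusted p = 0.0413) and Ddit4 (0.0457) were called higher with all libraries only, and Dusp1 and Il7r in both fits. Fkbp5, Sgk1, Txnip, Klf9, Nfkbia and Cxcr4 did not pass (adjusted p = 0.549, 0.984, 0.0779, 0.14, 0.0693 and 0.111). Tsc22d3 rose in P1 as well (1.74, adjusted p = 2.54e-07), whereas Dusp1 did not pass there.

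Around the receptors that fell, P2rx4 (adjusted p = 0.92), Art2b (0.271), Rgs1 (0.507) and Rgs10 (0.799) did not pass in P2. Art2b, which can open P2rx7 by attaching ADP-ribose, was at 96.9, 88.1 and 96.3 TMM CPM at D12 and at 153, 113 and 95.5 at D49 in P2, and rose by 3.61 on the log2 scale in P1 (adjusted p = 2.54e-07).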
